A study of Mus musculus with 9 samples.

Results

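The 8 genes described here are the proneural bHLH and commitment factors Neurog1, Neurog2, Neurod1, Neurod2, Neurod6, Eomes, Hes6 and Insm1. They were chosen by symbol, and each symbol matched 1 of the 32285 mouse genes counted. Droplet-based 5′ single-cell RNA-seq had been run on dissociated, sorted tissue of 5 EP ZFTA-RELA mice and 4 control mice, aged 6 to 8 weeks in both groups. The tumor-bearing mice are labelled NestinCreERT2;Fus1, and carried a conditional ZFTA-RELA fusion allele with an IRES and luciferase that is recombined by Cre in Nestin-expressing radial glia. The control mice are labelled NestinCreERT2;TdT, so both groups carried the NestinCreERT2 driver, and the label lists no fusion allele for the controls. Each mouse was 1 library. The controls were thus brains without the fusion, and no second tumor type was included.

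Proneural bHLH factors bind DNA as dimers with E proteins and drive neural progenitors towards neuronal fate. In the developing cortex the neurogenins (Neurog1, Neurog2) act in progenitors, the T-box factor Eomes (Tbr2) marks intermediate progenitors, and the NeuroD factors (Neurod1, Neurod2, Neurod6) follow in young and mature projection neurons. Hes6 is a Hes family member that counteracts Hes1 and is itself induced by proneural factors, and Insm1 is a zinc-finger repressor of progenitors that are about to leave the cell cycle.

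On the GRCm38 build, Neurog1 (ENSMUSG00000048904) lies on chromosome 13 from 56250478 to 56252163 and is a gene of 1 exon. Neurog2 (ENSMUSG00000027967) lies on chromosome 3 from 127633135 to 127635631, Neurod1 (ENSMUSG00000034701) on chromosome 2 from 79452521 to 79456751, Neurod2 (ENSMUSG00000038255) on chromosome 11 from 98325415 to 98329648 and Neurod6 (ENSMUSG00000037984) on chromosome 6 from 55677822 to 55681263, each with 2 exons. Eomes (ENSMUSG00000032446) lies on chromosome 9 from 118478212 to 118486132, with 6 exons in either annotated transcript. Hes6 (ENSMUSG00000067071) lies on chromosome 1 from 91411483 to 91414038 with 4 exons, and Insm1 (ENSMUSG00000068154) on chromosome 2 from 146221921 to 146225020 with 1 exon. Neurog1, Neurod1, Neurod2, Neurod6 and Hes6 are on the minus strand.

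Because bHLH dimers bind E-boxes, the 250 bases before each annotated start (RefSeq, GRCm38.p6) were searched for CAGCTG, which reads the same on both strands, and for CAGATG or its reverse complement CATCTG. Of the 8 members 7 matched the promoter table, in 8 windows since Hes6 has 2 start sites, and Insm1 had no entry. CAGCTG stood in 2 of these windows, both of Hes6, and CAGATG in 1, that of Neurod2, while the other 5 windows held neither. Of all 32851 windows of that length in the table, 13% held CAGCTG and 14.4% held CAGATG. The windows of Hes6 and Neurog1, which were higher in tumors, and of Neurod2, which was lower, are shown 5′ to 3′ on the minus strand with the matches in capitals. A match describes the letters in the window and is no binding site.
Hes6 upstream start (chr1:91414039-91414288): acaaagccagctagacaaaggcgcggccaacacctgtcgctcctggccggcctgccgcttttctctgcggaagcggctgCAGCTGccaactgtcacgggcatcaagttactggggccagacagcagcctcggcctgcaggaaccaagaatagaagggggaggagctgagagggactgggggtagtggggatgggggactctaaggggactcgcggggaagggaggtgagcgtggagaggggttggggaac
Hes6 downstream start (chr1:91413223-91413472): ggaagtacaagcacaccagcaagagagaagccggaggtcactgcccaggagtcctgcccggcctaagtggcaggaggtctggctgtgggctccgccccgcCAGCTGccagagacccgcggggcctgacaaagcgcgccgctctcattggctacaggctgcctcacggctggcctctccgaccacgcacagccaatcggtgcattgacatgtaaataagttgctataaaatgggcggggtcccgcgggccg
Neurog1 (chr13:56252181-56252430): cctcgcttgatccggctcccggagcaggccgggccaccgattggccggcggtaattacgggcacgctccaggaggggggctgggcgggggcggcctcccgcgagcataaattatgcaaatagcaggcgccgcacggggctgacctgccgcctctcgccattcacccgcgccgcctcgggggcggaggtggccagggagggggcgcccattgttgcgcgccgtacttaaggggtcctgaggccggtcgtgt
Neurod2 (chr11:98329646-98329895): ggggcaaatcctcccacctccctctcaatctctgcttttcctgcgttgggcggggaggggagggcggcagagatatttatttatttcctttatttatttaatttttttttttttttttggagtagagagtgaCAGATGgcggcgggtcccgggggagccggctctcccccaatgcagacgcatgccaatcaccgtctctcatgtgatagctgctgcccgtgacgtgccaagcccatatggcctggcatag

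Counts are of unique molecular identifiers (UMIs), the tags that mark single captured transcripts, per gene and cell. After filtering, 4023 to 6358 cells per control and 1720 to 5108 per tumor were kept, with median depths of 2029 to 4112 and 2075 to 6524 UMIs per cell and totals of 13731800 to 21695609 and 5885675 to 37576079 UMIs. Levels are given as UMIs per 1000000 UMIs of the summed cells (CPM). The ZFTA-RELA sequence had 0 UMIs in each control and 6, 236, 6, 697 and 315 UMIs in tumor replicates 1 to 5. Luciferase had 0 UMIs in each control, while the IRES had 0, 1, 6 and 5 UMIs in control replicates 1 to 4, each in a cell of its own, so 12 control cells would meet the rule used for tumors. Kept cells of tumors with at least 1 UMI of the fusion, luciferase or IRES sequence are called fusion-allele cells. They numbered 83, 991, 103, 3795 and 1235, or 3.53%, 32.4%, 5.99%, 74.3% and 33.9% of the kept cells, so tumor replicates 1 and 3 held few. Among microglia-gated cells, which do not derive from Nestin-lineage radial glia, 2.31%, 8.26%, 0.896%, 27.9% and 13% also had such a UMI. All other cell types are gates of at least 3 markers per cell, with fusion-allele cells set apart. Any 2 libraries shared at most 9 cell barcodes, apart from control replicate 4, which was not compared. Every library held microglia-, astrocyte- and oligodendrocyte-gated cells (at least 131, 62 and 26), as brain tissue should.

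The first comparison asked which factors differed between tumor and control brain when all kept cells of a mouse were summed. Over the 5 tumors Neurog1 had 337 UMIs, Neurog2 321, Neurod1 345, Neurod2 566, Neurod6 244, Eomes 291, Hes6 6553 and Insm1 1458. Of the 8 members, Hes6 and Insm1 were higher and Neurod1, Neurod2 and Neurod6 were lower in tumors at an adjusted p below 0.05, by the quasi-likelihood test of edgeR with Benjamini-Hochberg adjustment over all genes, and Eomes missed that threshold. Neurog1 and Neurog2 were also called as higher, but entered the test only through tumors (4 of 5 tumors and 0 of 4 controls were above the filter on low counts), so that their calls carry no weight. In this comparison 61.6% of the 17588 genes tested were called, 32.2% as higher and 29.3% as lower, so a call by itself sets no member apart from genes at large. In these sums, fewer cells of a type, less RNA per cell and less free RNA cannot be told apart.

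Neurog1, a neurogenin of progenitors, was read at 0, 0, 0 and 0.0461 CPM in control replicates 1 to 4 and at 0.510, 1.72, 1.56, 1.62 and 14.5 CPM in tumor replicates 1 to 5. The groups did not overlap, and tumor replicate 5 stood far above the other 4 tumors. All controls together held 1 Neurog1 UMI and all tumors 337, a ratio of summed CPM of 294 with a 95% counting interval of 52.4 to 11640 (exact binomial, counting error only). Tumor replicate 5 gave 233 of the tumor UMIs, and without it the ratio was 112.3 (19.7 to 4479). Once any of tumor replicates 2 to 5 was left out the gene no longer passed the filter on low counts and was not tested.

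Neurog2 was at 0.510, 0.372, 0.379 and 0.323 CPM in the controls and at 0.850, 8.12, 0.995, 4.47 and 0.249 CPM in the tumors. Tumor replicates 2 and 4 were far above the controls and replicate 5 was below all of them, so the groups overlapped. With no filter on low counts the log2 fold change was 3.33 (SE 0.9651, edgeR adjusted p = 0.01555), where 22.2% of the 26543 genes tested were called as higher. With the filter limma voom did not call it (adjusted p = 0.0723), and the exact permutation test over all splits of the mice gave p = 0.0794 for the difference of the means. Without any 1 of tumor replicates 1 to 4 the gene no longer passed the filter on low counts and was not tested.

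Eomes was at 0.364, 0.186, 1.71 and 0.691 CPM in controls and at 0.340, 1.48, 7.39, 5.35 and 0.685 CPM in tumors. Tumor replicates 3 and 4 lay above all controls, and the other 3 tumors lay within the control range. The log2 fold change of 2.30 (SE 0.941) did not pass the test (edgeR adjusted p = 0.05512), and passed it in 7 of 20 alternatives. These were DESeq2, a mitochondrial limit of 10% and the replicate block, which left out tumor replicate 5. The others were the fits without control replicate 3, without tumor replicate 1, without tumor replicate 5 or without tumor replicates 1 and 3 together (1.85 to 3.11 when 1 mouse was left out). Eomes reached the filter on low counts through the tumors (4 of 5 tumors and 2 of 4 controls were above it). The fit and these passes therefore carry no weight.

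Hes6 was at 8.01, 10.3, 12.2 and 9.54 CPM in controls and at 22.3, 37.0, 63.4, 89.8 and 123 CPM in tumors. Each tumor was above each control, with means of 67.1 ± 40.5 (SD, n = 5) and 10.0 ± 1.74 (SD, n = 4). The log2 fold change was 3.04 (SE 0.519, edgeR adjusted p = 0.001062), and it passed under each of the 20 alternatives tried with a fitted model.

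Insm1 was at 4.08, 2.93, 3.03 and 3.503 CPM in controls and at 5.78, 6.52, 44.3, 9.61 and 39.9 CPM in tumors. The groups did not overlap, and tumor replicates 3 and 5 were several-fold above the other 3. The log2 fold change was 2.85 (SE 0.659, edgeR adjusted p = 0.004711).

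The NeuroD genes went the other way. Neurod1 was at 9.69, 9.40, 7.07 and 11.1 CPM in controls and at 4.42, 5.45, 1.85, 4.12 and 3.67 CPM in tumors, a log2 fold change of -0.95 (SE 0.348, edgeR adjusted p = 0.03736). Neurod2, a factor of mature cortical neurons, was at 68.1, 60.0, 59.1 and 65.5 CPM in controls and at 40.6, 13.3, 5.83, 1.22 and 0.996 CPM in tumors, a log2 fold change of -2.25 (SE 0.865, edgeR adjusted p = 0.0441). Neurod6 was at 55.7, 51.1, 55.2 and 58.5 CPM in controls and at 11.0, 4.62, 3.84, 1.94 and 0.0622 CPM in tumors, a log2 fold change of -3.57 (SE 0.758, edgeR adjusted p = 0.003109). None of the 3 genes overlapped between the groups. Neurod6 passed under each of 20 alternatives with a fitted model. Neurod1 passed under 11 of 20. It lost the call without control replicate 1, 2 or 4 or tumor replicate 1 or 5 (log2 fold change -1.15 to -0.74 when 1 mouse was left out). The call was also lost with no filter on low counts, with 5000 barcodes per library, without neuron-gated cells and with the replicate block, which left out tumor replicate 5. Neurod2 passed under 12 of 20, and lost the call without any single control or any of tumor replicates 2 to 5 (-3.24, without tumor replicate 1, to -1.93). The 6 members whose groups did not overlap each gave p = 0.0159 in the exact permutation test, the smallest that 5 mice against 4 allow. The groups did not overlap for 50.8% of the 21997 genes with at least 10 UMIs either (19.7% with tumors higher, 31.0% with tumors lower). Glutamatergic-neuron-gated cells with no transgene UMI were 1.195%, 2.69%, 2.535% and 2.56% of the kept cells in controls and 1.06%, 1.21%, 2.67%, 0% (0 of 5108 cells, which allows up to 0.0587%) and 0.247% in tumors. Tumor replicates 2 and 3 lay within the control range and the other 3 below it. The 25 cells of this gate in tumor replicate 4 (0.489% of its kept cells) all had a transgene UMI. With all neuron-gated cells left out, those with a transgene UMI included, Neurod6 (-3.95, SE 0.752, edgeR adjusted p = 0.001768) and Neurod2 (-2.55, SE 0.894, adjusted p = 0.03068) were still lower in tumors, and Neurod1 (-1.04, SE 0.417) was not called at adjusted p = 0.05074. The control sums lay close to the lowest barcodes, taken as free RNA. There Neurod1 was at 8.48 to 11.2 CPM in controls and 1.66 to 7.41 CPM in tumors. Neurod2 was at 50.9 to 58.4 and 1.66 to 53.0 CPM, and Neurod6 at 67.8 to 85.4 and 0.581 to 26.2 CPM. The part of free RNA in these differences was not tested.

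**Figure D1:**
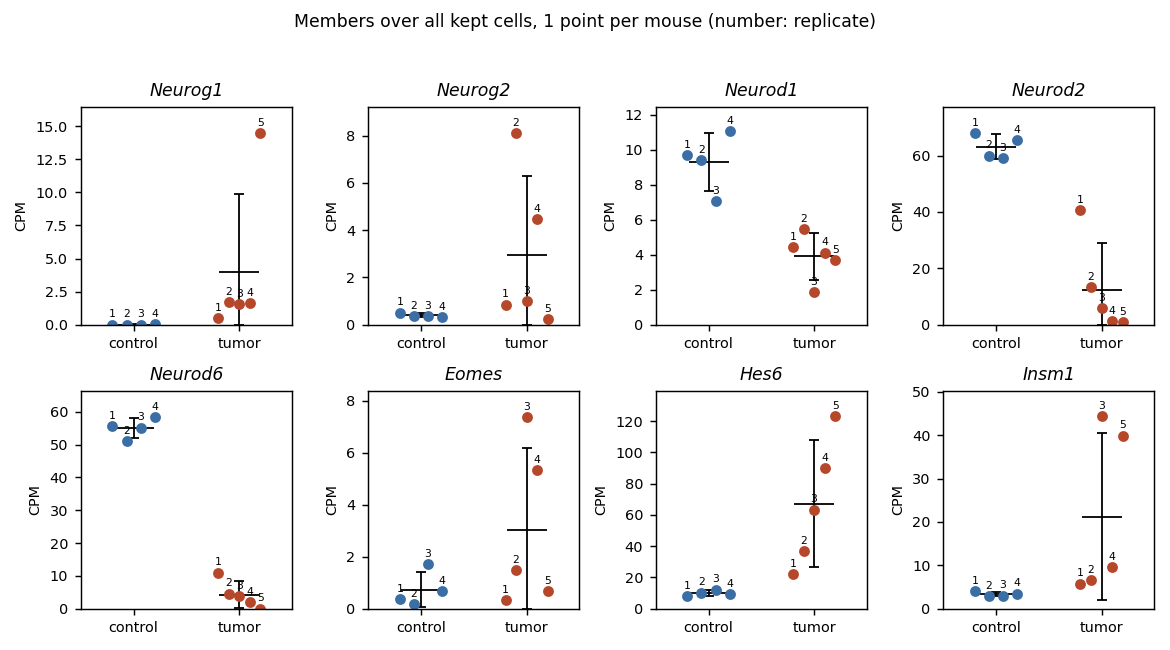
Level in CPM (vertical axis, linear, from 0) of each of the 8 genes over all kept cells, 1 point per mouse labelled with its replicate number, for controls and tumors; horizontal lines are means and bars are SDs (cut at 0). Neurog1, Hes6 and Insm1 sit higher in every tumor than in any control, Neurod1, Neurod2 and Neurod6 sit lower, and Neurog2 and Eomes overlap.

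The second comparison asked whether the members belonged to fusion-allele cells, by setting these against microglia-gated cells of the same tumor. Hes6 was at 43.8, 45.1, 197, 96.7 and 139.7 CPM in fusion-allele cells of tumor replicates 1 to 5 and at 19.5, 23.6, 27.5, 30.6 and 48.1 CPM in microglia-gated cells. It was higher in 5 of 5 tumors, with a log2 fold change of 1.25 (SE 0.255, edgeR with the mouse as a block, adjusted p = 0.002534). Insm1 was at 47.0, 6.19, 160.1, 10.4 and 36.3 CPM in fusion-allele cells and at 0, 0.799, 1.10, 0 and 12.02 CPM in microglia-gated cells, again higher in 5 of 5. In tumor replicate 1 the Insm1 value rested on 15 UMIs in 2 cells, and the gene was above the filter on low counts in 5 of 5 sums of fusion-allele cells but 1 of 5 of microglia-gated cells, so its call in the filtered fit carries no weight. In that fit 51.4% of the 10979 genes tested were called, 27.4% as higher and 24.0% as lower, and the other 6 members did not pass the filter.

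The 6 members under the filter were sparse in fusion-allele cells. Neurog1 was at 3.13, 2.45, 8.14, 2.06 and 21.6 CPM in fusion-allele cells of the 5 tumors, against 0 UMIs in the microglia-gated cells of 4 tumors and 2.40 CPM in replicate 5. Neurog2 was at 0, 11.8, 1.36, 4.94 and 0.464 CPM, against at most 0.611 CPM in microglia-gated cells. Replicate 5, which had most Neurog1, thus held 3 Neurog2 UMIs in 1235 fusion-allele cells, and replicate 2, which had most Neurog2, held 17 Neurog1 UMIs in 991. Eomes was at 0, 1.58, 32.6, 4.94 and 0.464 CPM in fusion-allele cells, and its high value in replicate 3 came from 24 UMIs in 4 cells. Neurod1 was at 0, 6.48, 1.36, 3.04 and 3.55 CPM, against at most 1.60 CPM in microglia-gated cells. With no filter on low counts, Insm1 (log2 fold change 3.65, SE 0.382, edgeR adjusted p = 2.696e-20) was called as higher than in microglia-gated cells. In the filtered fit its log2 fold change went to 2.45 without tumor replicate 3 and to 5.87 without tumor replicate 5. With no filter Neurog1, Neurog2, Eomes and Neurod1 were called as higher as well, at edgeR adjusted p = 2.239e-06, 0.000135, 0.0001478 and 0.01883, where 32.1% of the 22426 genes tested were called and 18.9% as higher. P-values of the fit with no filter rest on a spread shared over many sparse genes, so small ones carry little weight with 5 tumors.

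The lowest barcodes, taken as free RNA, were not at the level of microglia-gated cells for the sparse members. In tumors these barcodes held a median of 559 to 649 UMIs each and may include cells. Values of the sparse members there rest on 0 to 13 UMIs per tumor. In the lowest barcodes of tumor replicates 1 to 5 Neurog1 was at 0, 3.12, 0.594, 0.581 and 6.09 CPM, above its level in fusion-allele cells in replicate 2. Neurog2 was at 1.71, 6.75, 1.78, 2.33 and 0 CPM there, above fusion-allele cells in replicates 1 and 3, and Neurod1 at 7.41, 5.195, 4.16, 2.33 and 1.66 CPM, above them in the same replicates. Eomes was at 0, 0, 7.73, 6.98 and 0 CPM, above them in replicate 4. Hes6 (15.4 to 57.0 CPM) and Insm1 (2.28 to 22.1 CPM) were lower in these barcodes than in fusion-allele cells in 5 of 5 tumors. The part of free RNA in the values of the sparse members was not tested.

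**Figure D2:**
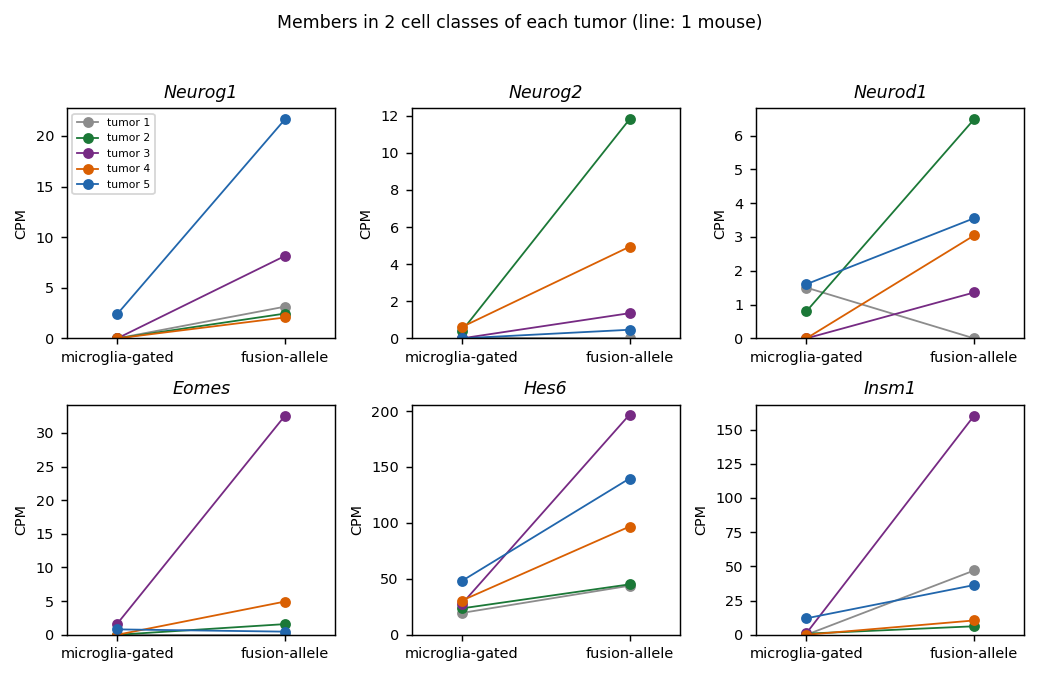
Level in CPM (vertical axis, linear, from 0) of 6 genes in microglia-gated and in fusion-allele cells of the same tumor; each line is 1 of the 5 mice. Hes6, Insm1 and Neurog1 rise in all 5, and Neurog1 is highest in tumor 5 (21.6 CPM) and rests on 1 cell in tumor 1. Neurog2 is carried by tumors 2 and 4 (11.8 and 4.94 CPM) and Eomes by tumor 3 (32.6 CPM).

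Since cell classes differed in depth, each cell was thinned to 2000 UMIs and shallower cells were left out. Pooled over tumors, a Hes6 UMI was then found in 16.04% of 6149 fusion-allele cells (exact Clopper-Pearson 95% interval 15.1 to 17.0) and in 6.29% of 1462 microglia-gated cells (5.10 to 7.66). For Insm1 the shares were 2.86% (2.46 to 3.31) and 0.547% (0.237 to 1.075). For Neurog1 they were 0.878% (0.660 to 1.14) and 0.0684% (0.00173 to 0.381), and for Neurog2 0.8294% (0.618 to 1.09) and 0 of 1462 cells, which allows up to 0.205%. Neurod1 was found in 0.732% (0.534 to 0.978) and 0.137% (0.0166 to 0.493), and Eomes in 0.618% (0.438 to 0.847) and 0.0684% (0.00173 to 0.381). The intervals cover counting error only. For these 6 members they did not overlap, against 4 when cells were thinned to 1000 UMIs (Neurog1, Neurog2, Hes6 and Insm1) and 7 before thinning (also Neurod6). Pooled cells are not replicates, as tumor replicate 4 gave 3795 of the fusion-allele but 272 of the microglia-gated cells. Mouse by mouse, Hes6 was found in 6.06%, 8.79%, 20.0%, 15.97% and 22.3% of fusion-allele cells of tumor replicates 1 to 5 and in 5.17%, 3.41%, 5.76%, 6.62% and 12.4% of microglia-gated cells. The share was higher in fusion-allele cells in 5 of 5 tumors for Hes6, Insm1 and Neurog1, with 1 Neurog1 cell each in replicates 1 and 3, and in 4 of 5 for Neurog2, Neurod1 and Eomes. Neurod2 (0.407% of fusion-allele and 0.752% of microglia-gated cells) and Neurod6 (0.309% and 0.274%) did not stand above microglia-gated cells. Before thinning, the median depth was 2968 to 7013 UMIs in fusion-allele cells and 2352 to 5975 in microglia-gated cells of the 5 tumors.

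Pooled over tumors, Hes6 and Insm1 were found more often in fusion-allele cells of the neuroblast gate than in those of the radial glia or progenitor gate. The 2 pools come from different mice. Tumor replicate 5 gave 335 of the neuroblast-gated cells, and replicates 4 and 2 gave 424 and 263 of the others. The part of the mouse in this difference was not tested. Of 372 fusion-allele cells that passed the neuroblast gate (Dcx, Dlx1, Dlx2, Dlx5, Dlx6os1, Sp9, Sp8 and Igfbpl1), 32.3% had a Hes6 UMI (27.5 to 37.3) and 15.6% an Insm1 UMI (12.1 to 19.7). Of 774 fusion-allele cells in the radial glia or progenitor gate, 11.0% had Hes6 (8.87 to 13.4) and 0.775% had Insm1 (0.285 to 1.68). Neuroblast-gated cells with no transgene UMI in tumors had values of 25.9% for Hes6 (22.4 to 29.5) and 21.1% for Insm1 (17.98 to 24.6), while in the 188 neuroblast-gated cells of controls the shares were 2.66% (0.869 to 6.097) and 2.13% (0.583 to 5.36). The gate need not hold like cells in both groups, and tumor cells whose transgene was not captured may be in it. Pooled over mice, its marker Igfbpl1 was at 122.8 CPM in controls and 1493 CPM in tumors, and Dlx2 at 67.0 and 475.8 CPM. Of its markers only Dcx was lower in tumors, at 344.9 CPM in controls and 264.1 CPM in tumors. Per mouse, neuroblast-gated cells with no transgene UMI had 148, 90.2 and 198 CPM of Hes6 in tumor replicates 2, 3 and 5 and 0, 25.0, 15.0 and 8.54 CPM in the controls. Insm1 was at 158, 207 and 125.6 CPM in the same tumors, and at 60.5, 8.35, 0 and 12.8 CPM in the controls. After thinning, the share with a Hes6 UMI in these cells was 33.3%, 3.70% and 28.9% in the tumors and 0%, 7.69%, 1.515% and 0% in the controls, so that tumor replicate 3, with 3 such cells of 81, lay within the control range. For Insm1 the shares were 16.7%, 22.2% and 21.2% against 10.5%, 3.85%, 0% and 0%. No CPM of either gene in tumors overlapped a control value. The same held for 13.7% of the 13053 genes with at least 10 UMIs in these cells with tumors higher, and for 20.1% with tumors lower. An exact permutation test of 3 mice against 4 can give no p below 0.0571, and no other test was run. Tumor replicate 5 held 841 of the neuroblast-gated cells, counting those with a transgene UMI, so the pooled shares are mostly from that mouse.

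**Figure D3:**
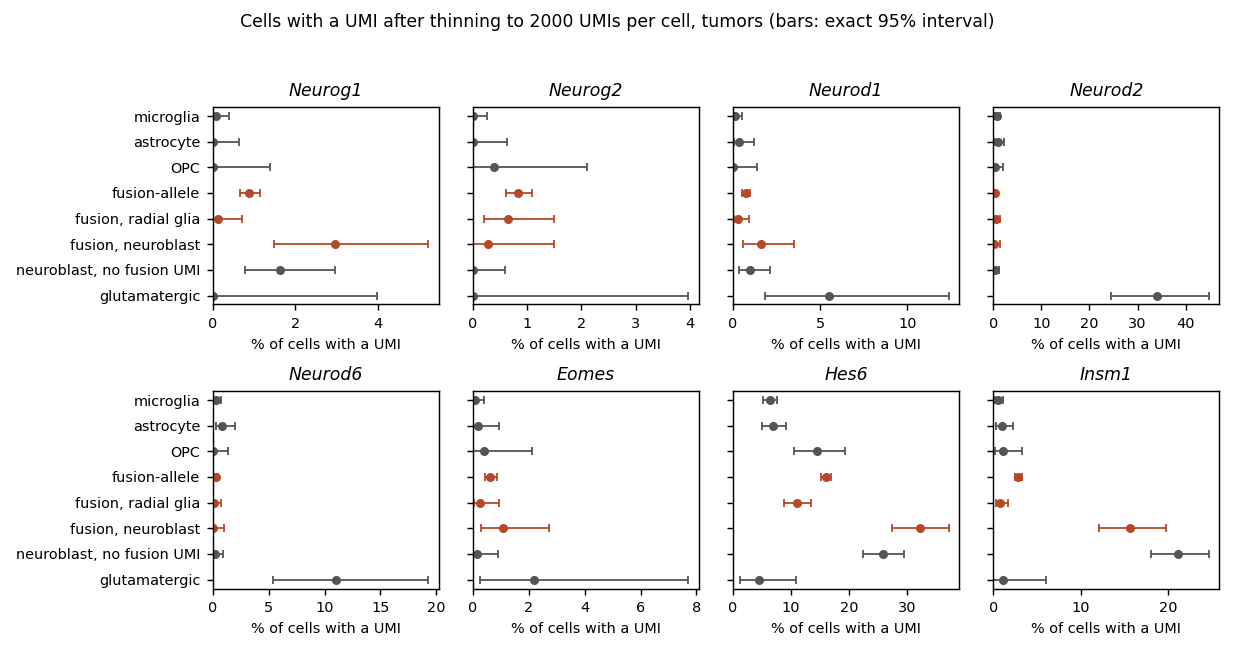
Share of cells with at least 1 UMI of each gene (horizontal axis, percent, linear) in classes of tumor cells after thinning to 2000 UMIs, pooled over the 5 tumors; bars are exact 95% intervals for counting error and red marks fusion-allele cells. In these pools Hes6 and Insm1 are most often found in both neuroblast-gated classes (25.9% to 32.3% and 15.6% to 21.1%), which come mostly from tumor replicate 5. Neurod2 and Neurod6 are most often found in glutamatergic-neuron-gated cells (34.1% and 11.0%).

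The third comparison set fusion-allele cells against all other kept cells of the same tumor, among which tumor cells whose transgene was not captured remain. Hes6 was higher in fusion-allele cells, Neurog1 was called as higher too but entered the test through the fusion-allele cells alone, and 5 of the 7 members tested did not pass, with 33.3% of the 14169 genes called and 16.1% called as higher. Neurog1 was at 0.359, 1.21, 0.793, 0 and 9.69 CPM in the other cells of tumor replicates 1 to 5, below its level in the fusion-allele cells in 5 of 5 tumors. The value in tumor replicate 1 rested on 1 UMI in 1 of 83 cells. The gene was above the filter on low counts in 5 of 5 sums of fusion-allele cells and 1 of 5 of the other cells, so its call in the filtered fit carries no weight. With no filter its log2 fold change was 1.89 (SE 0.396, edgeR with the mouse as a block, adjusted p = 0.0003902), where 10.3% of the 24271 genes tested were called as higher, and in the filtered fit the log2 fold change was 1.86 with all mice and 2.48 without tumor replicate 5. Hes6 was at 21.0, 31.4, 47.8, 64.2 and 112 CPM in the other cells, lower in 5 of 5 as well, with a log2 fold change of 0.93 (SE 0.234, adjusted p = 0.01392). Insm1 was at 3.41, 6.75, 30.8, 6.49 and 42.3 CPM in the other cells, above its level in fusion-allele cells in replicates 2 and 5 and below it in the other 3 (log2 fold change 1.05, SE 0.472, adjusted p = 0.1149). Neurod1 (-0.39, SE 0.366), Neurod2 (-1.19, SE 0.447), Neurod6 (-0.79, SE 0.421) and Eomes (0.63, SE 0.551) did not pass at adjusted p = 0.4515, 0.06484, 0.1767 and 0.413. Neither gene was called when a UMI of the fusion itself was required, at edgeR adjusted p = 0.3856 for Neurog1 and 0.3273 for Hes6, and in that setting Neurog2 was higher (log2 fold change 1.296, adjusted p = 0.01745) and Neurod1 lower (-1.77, adjusted p = 0.03044) in cells with the fusion. There 10.8% of the 14551 genes tested were called, 2.91% as higher and 7.84% as lower. Cells with luciferase or IRES UMIs alone then counted among the other cells, and tumor replicates 1 and 3 dropped out with under 20 cells, so the fusion requirement and the smaller number of mice cannot be told apart.

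Within fusion-allele cells some pairs of members shared more cells than if unrelated, and others did not. The pairs given here are a choice, and no test was run. Cells with a UMI of a member were deeper for most members. In tumor replicate 2, 6 of 991 fusion-allele cells had Eomes, and all 6 also had Neurod1 and Insm1, where 0.115 and 0.139 cells would be shared if the genes were unrelated. In tumor replicate 4, 28 of the 68 cells with Eomes also had Neurod1 (0.986 if unrelated) and 26 had Insm1 (4.23). There, 10 of 15 cells with Neurod2 had Neurod1 (0.217). Neurog2 and Hes6 shared 69 of 93 cells with Neurog2 (35.3), and Neurog2 and Neurod1 shared 2 cells (1.35). Neurod6 there shared 23 cells with Hes6 (21.6), 3 with Insm1 (3.55), 2 with Neurod1 (0.826) and 0 with Eomes (1.02). In tumor replicate 5, 58 of 84 cells with Neurog1 had Hes6 (34.3 if unrelated) and 19 had Insm1 (10.6). The expectation takes no account of depth: in replicate 4 cells with Neurog2 had a median of 8222 UMIs, cells with Eomes 7166 and cells with Neurod1 5926, against 7013 over all fusion-allele cells, and in replicate 5 cells with Neurog1 had 5866 against 4570. The part of depth in the shared cells was not tested.

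The fourth comparison divided fusion-allele cells by cycling markers, as the members mark steps between a dividing progenitor and a postmitotic neuron. Tumor replicates 2, 4 and 5 had enough cells, with 315, 989 and 551 cycling and 676, 2806 and 684 non-cycling ones. Neurod1, a late factor, was at 0.724, 0.310 and 2.58 CPM in cycling and at 10.3, 4.38 and 4.68 CPM in non-cycling cells of these tumors, lower in cycling cells in 3 of 3. It was above the filter on low counts in 3 of 3 sums of non-cycling and 0 of 3 of cycling cells, so its call in the filtered fit carries no weight. With no filter its log2 fold change was -2.53 (SE 0.375, edgeR with the mouse as a block, adjusted p = 4.259e-10), and in the filtered fit it went from -2.55 to -3.68 without tumor replicate 5. P-values of the fit with no filter rest on a spread shared over many sparse genes, so small ones carry little weight with 3 tumors. Neurog2 was at 9.42, 2.17 and 0 CPM in cycling and at 13.4, 6.29 and 1.00 CPM in non-cycling cells, also lower in 3 of 3 (-1.02, SE 0.330, adjusted p = 0.04536), but was not called with DESeq2 (adjusted p = 0.1758) or with at least 3 cycling markers (adjusted p = 0.07458). In tumor replicate 5 the Neurog2 values rest on 3 cells, 0 of them cycling, too few to show a difference. Apart from Neurod1, Neurog2 was the 1 member of 4 tested that was called, while 24.7% of the 12530 genes tested were called and 11.3% as lower. Without tumor replicate 4 neither passed, with log2 fold changes of -1.98 and -0.58 for Neurod1 and Neurog2. Without replicate 5 Hes6 was also called as lower (-0.45, edgeR adjusted p = 0.002521), as were Neurod2 and Eomes, beside 11.8% of the 13692 genes tested. With all 3 tumors neither Neurod2 nor Eomes passed the filter on low counts. There Eomes was above it in 2 of 3 non-cycling and 0 of 3 cycling sums, so its call carries no weight. Neurod2 was above it in 1 of 3 sums on each side.

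Neurog1, Hes6 and Insm1 did not pass this test. Neurog1 was at 3.26, 1.96 and 25.0 CPM in cycling and at 1.91, 2.11 and 17.7 CPM in non-cycling cells of tumor replicates 2, 4 and 5 (log2 fold change 0.40, SE 0.245, adjusted p = 0.2697). In replicate 5, 60.7% of the 84 cells with Neurog1 were cycling, against 44.6% of all fusion-allele cells. Hes6 was at 38.0, 69.9 and 139.3 CPM in cycling and at 49.7, 109.8 and 140.2 CPM in non-cycling cells (-0.29, SE 0.113, adjusted p = 0.08661), and Insm1 at 3.26, 8.89 and 39.6 against 8.13, 11.2 and 32.5 CPM (-0.11, SE 0.209, adjusted p = 0.7411). Eomes, which missed the filter on low counts, was at 0, 2.07 and 0.287 CPM in cycling and at 2.63, 6.34 and 0.669 CPM in non-cycling cells. With no filter it was called as lower in cycling cells at -1.68 (SE 0.404, adjusted p = 0.0003975), and so was Neurod2 at -1.69 (SE 0.507, adjusted p = 0.007338), beside 7.67% of the 21768 genes tested. The limit on p-values of the fit with no filter, given above, holds here too. Cycling cells were deeper, with median depths of 8310, 9047 and 5387 UMIs against 5698, 6468 and 4014, and the part of depth in how cells were classed was not tested.

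**Figure D4:**
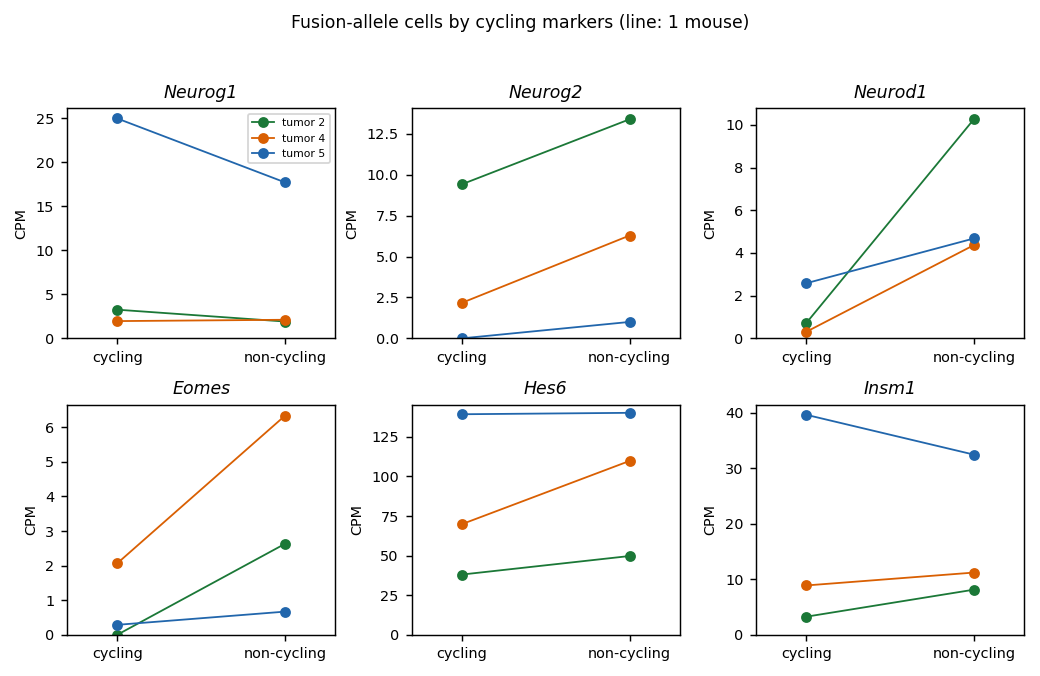
Level in CPM (vertical axis, linear, from 0) of 6 genes in cycling and non-cycling fusion-allele cells; each line is 1 of tumor replicates 2, 4 and 5. Neurod1, Neurog2 and Eomes are lower in cycling cells in all 3 tumors, whereas Neurog1 and Insm1 in tumor 5 are higher there (25.0 against 17.7 and 39.6 against 32.5 CPM). In tumor 5 Neurog2 and Eomes rest on 3 cells each.

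The fifth comparison asked about the mature neuronal members within 1 gate, which need not hold like cells in both groups. Pooled over mice, its marker Slc17a7 was at 939 CPM in controls and 1072 CPM in tumors, and Tafa1 at 774 and 216 CPM. Slc17a6 was at 66.0 CPM in the control gate, beside 74.7 CPM in free RNA, and at 44.9 beside 20.7 CPM in tumors. Glutamatergic-neuron-gated cells numbered 76, 135, 102 and 128 in controls and 25, 37 and 46 in tumor replicates 1 to 3 after fusion-allele cells were set apart, and fewer than 20 in replicates 4 and 5. Neurod2 was at 82.5, 94.1, 103 and 108 CPM in the controls and at 244, 213 and 135 CPM in the 3 tumors, on 16 to 74 UMIs per mouse, a log2 fold change of 0.90 (SE 0.271, edgeR adjusted p = 0.03644). Each tumor was above each control, in the direction opposite to the sums over all cells. Of the 6547 genes tested here 13.4% were called, 6.42% as higher and 6.97% as lower in tumors, and the call was lost in 8 of 11 alternatives, among them those without any single control or without tumor replicate 2 (0.65 to 1.13 when 1 mouse was left out). Neurod6 was at 56.7, 76.7, 75.5 and 42.5 CPM in the controls and at 115, 107 and 67.6 CPM in the tumors (0.52, SE 0.324, edgeR adjusted p = 0.2881). The groups overlapped, and the other 6 members did not pass the filter on low counts.

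Free RNA also carried both genes. In the lowest barcodes of the controls, taken as free RNA, Neurod2 was at 50.9 to 58.4 CPM and Neurod6 at 67.8 to 85.4 CPM. Microglia-gated cells of the controls carried 41.1 to 50.4 CPM of Neurod2 and 31.5 to 48.8 CPM of Neurod6, and Neurod6 in glutamatergic-neuron-gated cells lay below the free RNA in control replicates 1, 3 and 4. In tumor replicates 1 to 3 free RNA held 53.0, 46.8 and 8.32 CPM of Neurod2 and 26.2, 12.99 and 10.1 CPM of Neurod6, and microglia-gated cells at most 18.01 and 6.00 CPM. The part of free RNA in the difference between the gated cells of tumors and controls was not tested. After thinning, 34.1% of 91 glutamatergic-neuron-gated cells of tumors (24.5 to 44.7) and 15.9% of 421 of controls (12.6 to 19.8) had a Neurod2 UMI, beside 0.752% and 8.87% of microglia-gated cells.

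**Figure D5:**
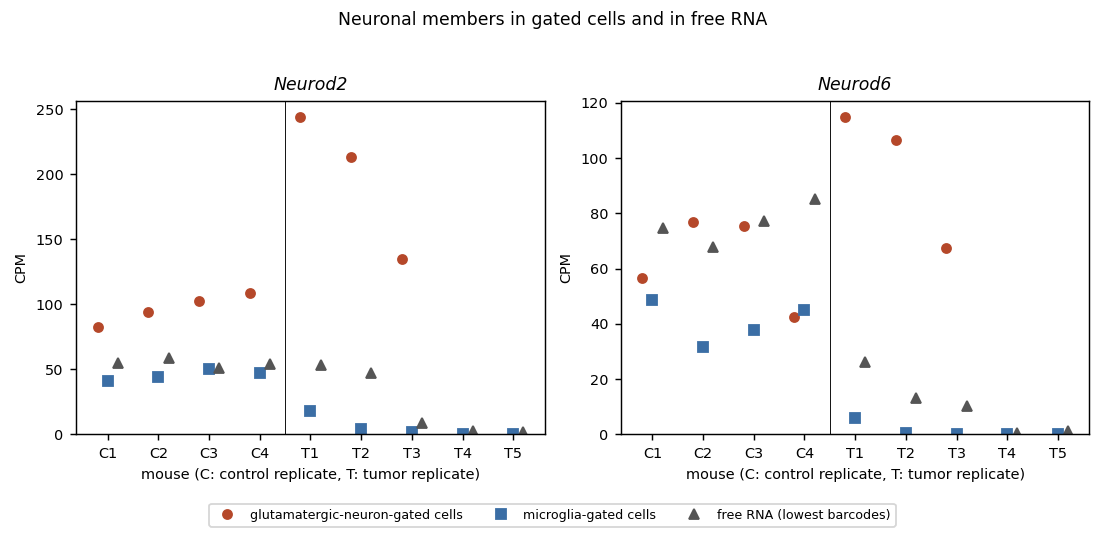
Level in CPM (vertical axis, linear, from 0) of Neurod2 and Neurod6 in glutamatergic-neuron-gated cells, microglia-gated cells and free RNA of each mouse (C, control and T, tumor, with replicate number); gates with under 20 cells are not drawn. In controls the microglia-gated cells carry 41.1 to 50.4 CPM of Neurod2, close to the free RNA. In tumors 1 to 3 the glutamatergic-neuron-gated cells stand apart at 244, 213 and 135 CPM.

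The other genes of the pathway are given by lists. Of the other proneural bHLH factors, Atoh7 (log2 fold change -1.18, SE 0.358, edgeR adjusted p = 0.01715) and Bhlhe22 (-1.13, SE 0.372, adjusted p = 0.02415) were lower in tumors over all kept cells, and Nhlh2 did not pass (-0.03, SE 0.758, adjusted p = 0.9715). Nhlh1, at 0.1396 to 0.379 CPM in controls and 0.1699 to 6.34 CPM in tumors, and Neurod4, at 0.415 to 0.728 and 0.1699 to 5.94 CPM, reached the filter on low counts through 4 tumors (0 and 2 controls were above it), and their calls as higher carry no weight. In this comparison 32.2% of all genes tested were called as higher and 29.3% as lower, against which the counts of each list are to be read. The median log2 fold change over all genes was 0.04. All 3 E protein partners were called as higher in tumors, Tcf3 by 2.02, Tcf12 by 0.73 and Tcf4 by 0.50 on the log2 scale, and all 3 were also higher in fusion-allele cells in both comparisons within tumors, beside 27.4% of all genes against microglia-gated cells and 16.1% against all other cells. Tcf4 overlapped between tumors and controls, at 541.4 to 604.7 CPM in controls and 563.5 CPM in tumor replicate 2.

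Of the 8 bHLH antagonists, 6 were higher in tumors (Hes1, Hes5, Hey2, Id1, Id2 and Id3), beside 32.2% of all genes, none was lower, beside 29.3%, and Hey1 and Id4 did not pass. Their median was 1.71. Hes5 overlapped between the groups, at 19.15 to 28.21 CPM in controls and 24.3 CPM in tumor replicate 1. Hes1, the Notch target that represses proneural genes, was at 12.9 to 16.9 CPM in controls and 26.0 to 79.5 CPM in tumors. Against all other cells of tumors the antagonists did not keep together. There Hes5 was higher in fusion-allele cells, Hey2, Id2 and Id3 were lower and 4 did not pass, beside 16.1% of all genes called as higher and 17.3% as lower. Against microglia-gated cells 6 of 7 tested were higher (Hes1, Hes5, Hey1, Id1, Id3 and Id4), beside 27.4% of all genes. Id2 was lower, beside 24.0%. Hes5, Hey1 and Id4 were above the filter on low counts in fewer microglia-gated (3, 2 and 4 of 5) than fusion-allele sums. Of the Notch ligands and modulators, Dll1, Dll3 and Mfng were called as higher in tumors and Jag2 did not pass (median 2.08), and in fusion-allele cells Dll1 and Dll3 were higher and Mfng and Jag2 lower than in all other cells, where Jag2 reached the filter on low counts through the other cells. Dll1 was at 3.595 to 5.12 CPM in controls and at 3.568 CPM in tumor replicate 1, below all controls.

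Of the commitment and cell cycle exit genes, 8 of 9 were tested. Btg2, Gadd45g, Sox4 and Sox11 were higher in tumors, Elavl4 and Srrm4 lower, and Myt1 and St18 did not pass, with a median of 1.69. Sox4 was at 29.3 to 39.1 CPM in controls and at 94.1 to 420 CPM in tumors (log2 fold change 3.35, SE 0.448, edgeR adjusted p = 0.0003537). In cycling against non-cycling fusion-allele cells Btg2, Elavl4, Gadd45g and Sox4 were lower, beside 11.3% of all genes tested, none was higher, beside 13.4%, and Sox11 did not pass. Myt1, Srrm4 and St18 reached the filter on low counts through the non-cycling cells, and their calls as lower carry no weight. Dll1 and Dll3 were also lower in cycling cells.

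Among corepressors and repressors of neuronal genes, Rest, Rcor1 and Rcor2 were called as higher in tumors, Scrt1 and Cbfa2t2 were lower and 3 did not pass, with a median of -0.02. Rcor1 was at 27.33 to 29.56 CPM in controls and at 25.32 to 40.26 CPM in tumors, with tumor replicate 1 below all controls. Rest, the repressor of neuronal genes in non-neuronal cells, was at 8.39 to 9.66 CPM in controls and 29.6 to 58.7 CPM in tumors. Of the 5 cortical projection neuron factors Tbr1 and Bcl11b were lower, none was higher and 3 did not pass, with a median of -1.10. Tbr1, which follows Eomes in cortical neurons, was at 30.0 to 35.6 CPM in controls and at 0.249 to 9.36 CPM in tumors. In glutamatergic-neuron-gated cells it was called as higher in tumors (log2 fold change 1.46, SE 0.343, edgeR adjusted p = 0.0109), beside 6.42% of all genes tested. That fit held 3 tumors with 25, 37 and 46 cells, in a gate that need not hold like cells in both groups. Tbr1 was above the filter on low counts in 2 of 3 tumors and 3 of 4 controls, and no alternative was tried for it.

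Likeness of pattern was described over 24 sums of a cell class and a group with at least 100 cells each, by Pearson's r of log2(CPM + 10) among 17230 genes. These sums share libraries and free RNA. For Neurod2 the nearest genes were Gpr22, Slc30a3 and Nptx1 (r = 0.977, 0.973 and 0.973), and for Neurod6 they were Lin7b, Rab15 and B230209E15Rik (0.972, 0.967 and 0.966). Nptx1 is itself a marker of the glutamatergic gate. For Neurod1 they were Slit1, Neurod2 and Gm15631 (0.903, 0.867 and 0.867). For Hes6 they were Apex1, Mrpl28 and Cct3 (0.931, 0.925 and 0.921), for Neurog1 Hist1h3e, Hist1h2af and Tuba3a (0.948, 0.947 and 0.934), and for Insm1 Hoxaas2, Hoxa7 and A830011K09Rik (0.912, 0.908 and 0.907). For Neurog2 they were Fndc3c1, Klf1 and Pax5 (0.867, 0.864 and 0.857), and for Eomes Rgs13, Bmp3 and Gm20512 (0.823, 0.788 and 0.761). Between members r was 0.925 for Neurod2 with Neurod6, 0.864 for Neurog1 with Insm1 and 0.789 for Neurog1 with Hes6, and -0.634 for Hes6 with Neurod6. Neurog1 and Neurog2 had an r of 0.592.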

How the data were processed

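Single-cell libraries of 5 tumors and 4 control brains were used. The authors counted reads with Cell Ranger (6.1.2 in the matrix headers, 7 in the submitters' processing notes) on mm10 with 4 added sequences, and the deposited values are raw UMI counts per gene and barcode, not normalized. The feature and barcode lists of control replicate 4 are shorter than its matrix, and its added sequences were taken to stand in the order of the other samples, on which its transgene counts rest.

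Of every library at most the 10000 deepest barcodes entered, and 200 to 6000 genes were required. Tumor replicate 3 held 9001 barcodes, and all of them entered. The component with more mitochondrial UMIs of a Gaussian mixture (2 components, on mitochondrial percent and number of genes, scikit-learn 1.9.0) was removed, and so were the barcodes with the highest Scrublet scores (Scanpy 1.11.5), at 0.8% per 1000 cells. A cell passed a gate if at least 3 distinct markers were found and the next list had at most 0.67 of its share of markers. The summed UMIs of the markers also had to exceed the free-RNA expectation (Poisson p below 0.01). Free RNA was taken from the 3000 lowest of all deposited barcodes of a library, which held at least 468 UMIs each. A cell with at least 2 cycling markers was called cycling. These thresholds were set on marker counts after the files were seen. In controls 5198 of 6358, 3518 of 5017, 2856 of 4023 and 3605 of 4999 kept cells passed no gate. In tumors these were 1209 of 2352, 1259 of 3063, 487 of 1720, 3190 of 5108 and 1615 of 3645. Most cells in the control sums thus had no gated type. Controls held 75222 to 86516 deposited barcodes and tumors 9001 to 26341. The lowest barcodes had medians of 691 to 1338 UMIs in controls and 559 to 649 in tumors.

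UMIs were summed per mouse, or per mouse and class of at least 20 cells, and fitted in edgeR (version 4.0.16 under R 4.3.3) for its quasi-likelihood test (TMM, filterByExpr, two-sided, Benjamini-Hochberg over all genes tested, threshold 0.05), with the mouse as a block within tumors. SEs are the log2 fold change divided by the root of the F statistic. Alternatives used DESeq2 1.42.0, limma 3.58.1 (voom), other filters, gates and cell sets, and left out each mouse. The code was tested on simulated counts with 200 changed genes. All pairs of replicates differed by more than sampling noise. Limits for a count of 0 are 3 counts, and intervals are at 95%.

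The members, gene lists and tests were chosen with earlier results of these data known. The genes named were the 8 members, genes of 7 pathway lists that passed the test or were among the 2 of their list with most UMIs, and the 3 genes most like each member. Some results of the pathway lists are not reported here.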

Additional observations from a re-analysis of the deposited data

Results flagged for a closer look

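Values far from the rest of their group, by the gap to the nearest other mouse over the group's whole range, were found in 5 of the 24 groups of 4 or 5 mice examined. The limits are made to flag about 1 in 20 groups of normally distributed values. Sparse counts need not follow that distribution, and the groups are not independent, so that rate need not hold here. For Neurog1, tumor replicate 5 (14.5 CPM over all kept cells) lay apart from the other 4 tumors (0.510 to 1.72 CPM), and control replicate 4 (0.0461 CPM, 1 UMI) from 3 controls at 0. In fusion-allele cells of tumor replicate 3, which had 103 of them, Eomes (32.6 CPM) lay apart from 0 to 4.94 CPM in the other tumors and Insm1 (160.1 CPM) from 6.19 to 47.0 CPM. Neurod2 in fusion-allele cells of tumor replicate 1 (18.8 CPM, 6 UMIs) lay apart from 0 to 5.33 CPM in the others, beside 18.01 CPM in microglia-gated cells of that mouse.

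Outside the comparisons, Hes6 in the lowest barcodes was higher in each tumor (lowest value 15.4 CPM) than in any control, the highest of which was at 12.4 CPM.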

How the results depend on the processing

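With 7 members called between tumor and control, Neurog1 and Neurog2 included, leaving out 1 mouse gave 4 to 7. Of the counts over the members 48 stayed within 1.5 times the reported count and 20 moved further. Against microglia-gated cells 2 members were called, and 6 with no filter on low counts. Against all other cells 2 were called, 5 with no filter, 4 when the other cells held no cells of non-neural gates (an alternative chosen after seeing the data) and 0 without the mouse as a block, where edgeR called 643 of all genes instead of 4722 and no member had an unadjusted p below 0.05. In glutamatergic-neuron-gated cells 1 was called, 0 with DESeq2, with no filter or with a replicate block, and 0 to 1 when 1 mouse was left out. Between cycling and non-cycling cells 2 were called, 1 with DESeq2, 1 with at least 3 cycling markers, 4 with no filter, and 0 to 5 when 1 mouse was left out. The calls over all genes ranged from 253 to 1708 in glutamatergic-neuron-gated cells (876 as reported) and from 1382 to 3678 for cycling cells (3092 as reported). Among these counts are Insm1 against microglia-gated cells, Neurog1 against all other cells, Neurod1 in cycling cells and, in alternatives only, Eomes between tumor and control. Each entered its test through the side where it was high. The cause was not tested in any of these.

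Directions turned for 3 members, none of them called. Against all other cells Neurod1 went to 0.087 without tumor replicate 4 (leaving out 1 mouse, -0.81 to 0.087), Eomes to -0.26 without tumor replicate 3 (-0.26 to 0.74) and -1.11 with a fusion UMI required (which also left out tumor replicates 1 and 3), and Insm1 to -0.19 with a fusion UMI required and -0.26 with at least 2 transgene UMIs. In cycling cells Insm1 went to 0.014 with at least 3 cycling markers, and leaving out 1 mouse gave -0.43 to 0.059, above 0 without tumor replicate 2 or 4. With library sizes alone the median log2 fold change of all genes between tumor and control moved from 0.04 to -0.19, and no member's call changed. Tumor and control numbers only name the mice (correlations of same-numbered mice 0.003 to 0.046). With the replicate block, which left out tumor replicate 5, 6 members were called between tumor and control, in place of 7. The block and the missing mouse cannot be told apart. Depth limits Neurog1, Neurog2 and Eomes, with at most 140, 146 and 146 UMIs in the fusion-allele cells of a mouse.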
